A study of Mus musculus with 12 samples.

Results

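The combined treatment with zinc and dexamethasone (Dex) was set against no treatment in mouse liver, gene by gene. All genes of the count table with at least 10 counts in at least 3 of the 12 libraries were taken, which were 13255 of 54838 genes, and 6 of the 12 libraries entered the comparison. At the edge of this rule, 202 genes had exactly 10 counts in their third-ranked library and 212 genes, left out, had 9. The 13255 genes held 99.86% of all counts. The mice were wild-type female C57BL/6J animals without a transgene, 8 to 14 weeks old. The 3 zinc-Dex mice had 25 mM ZnSO4 in their drinking water for 7 days and then 200 µg Dex, injected intraperitoneally in PBS. The 3 water-PBS mice, the untreated controls, drank plain water for the same time and were injected with PBS alone. Livers were sampled 2 h after the injection, so Dex acted for hours and zinc for days. In the other 6 mice, 3 had zinc and PBS (zinc-PBS) and 3 plain water and Dex (water-Dex), and they show which single treatment a change goes with.

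Dex binds the glucocorticoid receptor (GR), which enters the nucleus, binds DNA as a dimer to switch genes on and restrains transcription factors of inflammation. In liver, GR is known for raising enzymes of gluconeogenesis and amino acid breakdown during fasting and stress. Zinc that enters a hepatocyte is bound by metallothioneins and activates the sensor MTF1, which binds metal response elements in the promoters of metallothionein and zinc transporter genes. Metallothionein genes also answer to glucocorticoids, so both treatments meet at these genes.

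The 6 libraries held between 9091152 and 12303527 counts. In a principal component analysis of these 6 libraries, zinc-Dex and water-PBS mice lay apart on the first axis, which took 91.6% of the variance. All 7 hepatocyte markers found in the table were expressed, with a summed level of 1277000 to 1508000 normalized counts in water-PBS and 1701000 to 1815000 in zinc-Dex, and 4 of 7 were higher by the adjusted p though under the fold threshold. Of 10 Kupffer cell markers none was called by DESeq2, 0 had an unadjusted p under 0.05 and edgeR called 0, and their sums overlapped (6498 to 8955 against 7253 to 8042). Of 10 markers of sinusoidal endothelium, *Lyve1* was higher (LFC 2.70) and *Kdr* lower (LFC -1.20), with sums of 5904 to 6406 and 6375 to 6655. The summed cholangiocyte markers stood at 955.8 to 1176 in zinc-Dex against 735 to 847, most of it from *Spp1* (DESeq2 adjusted p 0.0602). Sums of stellate cell, lymphocyte, neutrophil, exocrine pancreas, gut and red blood cell markers overlapped between the groups, and DESeq2 and edgeR called 0 of them, with 2 higher and 1 lower at an unadjusted p under 0.05, all of stellate cells. The neutrophil sums were 36.7 to 76.2, with *Ly6g*, *Camp* and *Ngp* at or near 0. The part of these cell types in the changes below was not tested. In such bulk samples, fewer cells of a type and less RNA per cell cannot be told apart. *Lyve1*, *Kdr* and *Spp1* were named after their values were seen.

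Levels are given as normalized read counts, that is, counts divided by the size factor of their library, for mice 1, 2 and 3 of a group in this order. A change is the log2 fold change (LFC) of zinc-Dex over water-PBS with its standard error (SE). A gene counts as called where the LFC passed 0.8 in either direction and the adjusted p of DESeq2 was below 0.05. The 3 samples of a group are biological replicates according to the series' design. An exact permutation test on 3 against 3 mice cannot go below a two-sided p of 0.1, so that single genes rest on the model's pooled estimate of the spread.

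The combined treatment changed 1622 genes, 12.2% of the 13250 genes with an adjusted p. Of these, 791 (5.97%) were upregulated and 831 (6.27%) downregulated. In 777 of the upregulated and 794 of the downregulated genes, the zinc-Dex mice lay apart from the water-PBS mice, a separation that 41.2% of all genes showed. The median absolute LFC was 1.39 for upregulated and 1.23 for downregulated genes, and 76 genes rose more than 8-fold while 24 fell as much. The median LFC over all tested genes was -0.007 with a median SE of 0.171. By the adjusted p alone, 3565 genes (26.9%) differed, 1886 (14.2%) higher and 1679 (12.7%) lower.

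**Figure D1:**
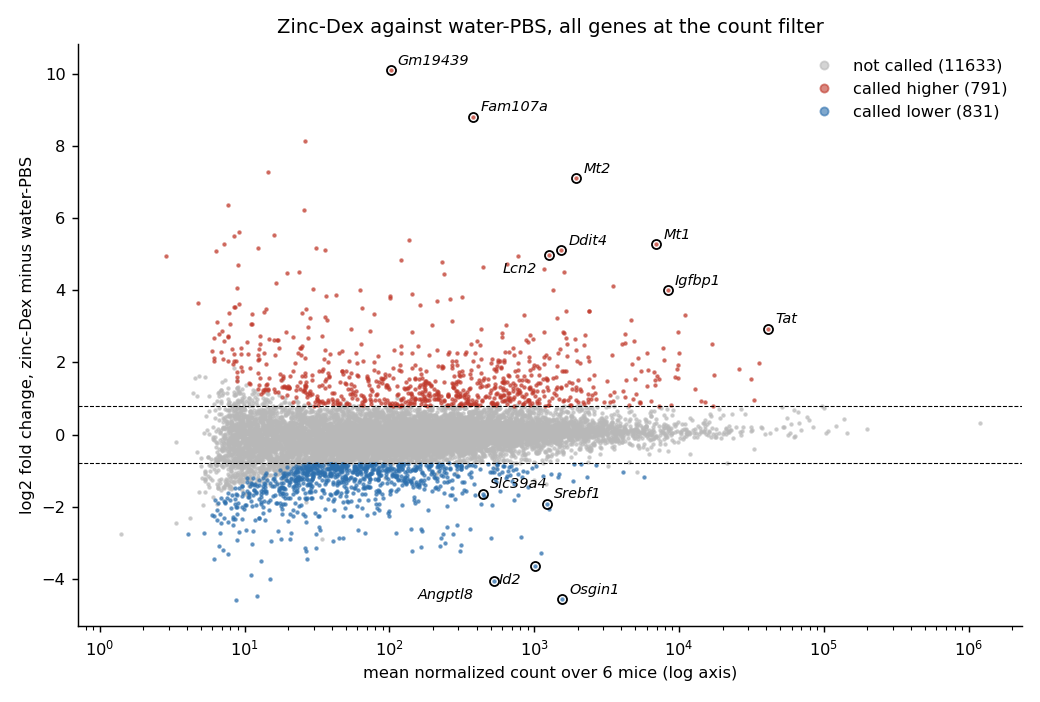
Each point is 1 of the 13255 genes, with its mean normalized count over the 6 mice on a log axis and its log2 fold change of zinc-Dex over water-PBS. Red points are the 791 genes called higher, blue points the 831 called lower and dashed lines the threshold of 0.8 on either side. *Mt2*, *Mt1*, *Ddit4* and *Igfbp1* stand high at large counts, and *Osgin1*, *Angptl8* and *Id2* low.

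Among the genes called, those of the highest counts were mostly higher and those of the lowest counts mostly lower. When the tested genes were divided by their mean count into 5 bins of equal size, the bin of highest counts had 253 genes called higher and 41 lower, whereas the lowest bin had 147 called higher and 295 lower. These were 11.1% of the genes in the highest bin and 16.7% of those in the lowest. Upregulated genes had a median level of 223.9 normalized counts and downregulated genes one of 47.9, against 152.6 over all tested genes. Most of the genes called were protein coding (721 of the upregulated and 748 of the downregulated genes). At the low end the precision was poor, with a median SE of 0.454 in the lowest bin against 0.101 in the highest.

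**Figure D2:**
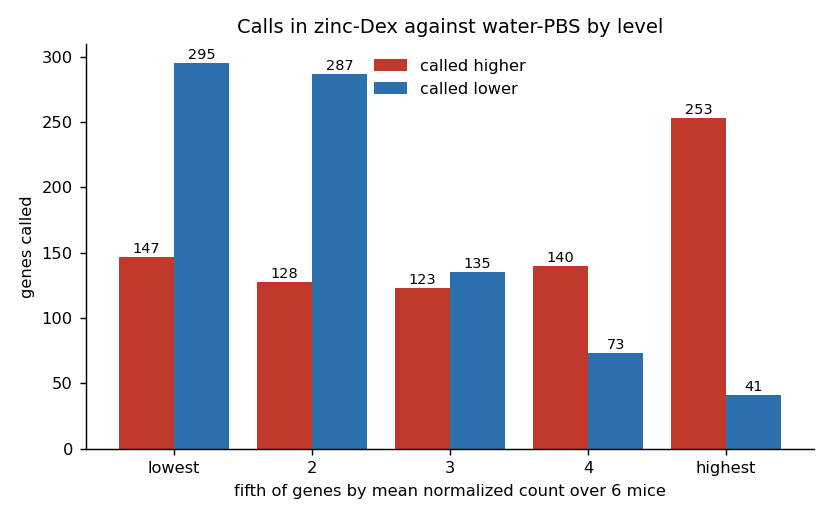
Bars give the number of genes called higher (red) and lower (blue) in zinc-Dex against water-PBS in 5 bins of equal size of the tested genes, ordered by mean normalized count. Calls lower fall from 295 in the lowest bin to 41 in the highest, and calls higher are most frequent in the highest bin, at 253.

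Among called genes with separate groups and a mean that reached 50 normalized counts, the 12 largest increases included *Gm19439*, *Fam107a*, *Lcn2* and *Gadd45b*. *Gm19439* (ENSMUSG00000105843, chr3:88030878-88033150, plus strand), an unclassified transcript, had no count in any water-PBS mouse and stood at 216, 187 and 209 in the zinc-Dex mice, at least 66.5-fold higher when set against a floor of 3 counts per library. *Fam107a* (ENSMUSG00000021750, chr14:8296274-8318023, minus strand), an actin-binding stress protein gene, stood at 2.11, 1.82 and 1.1 and rose to 776, 754 and 746, at least 247-fold. These genes were likewise high in the water-Dex mice, at 217, 164 and 203 for *Gm19439* and 818, 684 and 903 for *Fam107a*. In both genes every mouse that had Dex lay far above every control. *Lcn2*, which codes for the iron-chelating acute phase protein lipocalin-2, rose from 57.9, 104 and 70.7 to 2481, 2002 and 2905 (LFC 4.99, SE 0.571, DESeq2 adjusted p 9.82e-17). *Gadd45b*, a growth arrest gene, rose from 66.3, 47.4 and 28.7 to 1311, 1151 and 1290 (LFC 4.72). In both genes each zinc-Dex mouse was more than 10 times above the highest control. *Phf11c* rose by an LFC of 4.63 and *Mdm1*, a centriole protein gene, by 4.78. *Gm43305*, a noncoding transcript, had an LFC of 4.95, but zinc-Dex mouse 2 alone stood at 2786 against 825 and 868 in mice 1 and 3, and the LFC was 4.13 without it. *Mdm1* overlaps a gene on the opposite strand, and since the strand setting of the counting is not given in the sources used here, levels of such genes are uncertain.

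Under the same limits, the 12 largest decreases included *Osgin1*, *Id2*, *Angptl8* and *Pde4b*. *Osgin1* (ENSMUSG00000074063, chr8:119434124-119446256, plus strand), an oxidative stress-induced growth inhibitor, fell from 4351, 2465 and 2200 to 70.7, 172 and 140.4 (LFC -4.55, SE 0.366, DESeq2 adjusted p 1.56e-33). *Id2*, an inhibitor of basic helix-loop-helix transcription factors, fell from 1796, 1644 and 2198 to 148, 145 and 157 (LFC -3.65). No zinc-Dex mouse came near the water-PBS range in either gene. *Angptl8*, a secreted inhibitor of lipoprotein lipase that rises with feeding, fell from 440.2, 679 and 1859 to 60.9, 61.2 and 58.7 (LFC -4.04). Its zinc-Dex values were almost equal while the control values were spread, and the LFC was -3.22 without water-PBS mouse 3, the highest. *Mid1ip1*, an activator of acetyl-CoA carboxylase, had the same kind of spread, with an LFC of -3.06 and of -2.28 without water-PBS mouse 3. *Arrdc3*, an alpha-arrestin that drives receptor internalization, fell from 2616, 1824 and 1645 to 219, 227 and 181 (LFC -3.28). *Pde4b*, a phosphodiesterase that degrades cyclic AMP, fell from 184, 334 and 254 to 23.9, 30.1 and 28.9 (LFC -3.22). *Hes1*, the transcriptional repressor downstream of Notch (LFC -3.10), and *Efna1*, which codes for an ephrin ligand (LFC -3.10), also fell, with separate groups in both. *Angptl8*, *Mid1ip1* and *Arrdc3* overlap a gene on the opposite strand, as above.

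Genes that handle zinc showed both treatments. Of the 10 listed metal response genes 9 passed the count rule, of which 3 were upregulated, 2 downregulated and 4 not called, with a median LFC of 0.11. *Mt1* and *Mt2*, the liver metallothioneins, which bind zinc, rose, as did *Slc39a14*, the importer ZIP14, which carries zinc, iron and manganese. *Slc39a4*, the importer ZIP4, and *Slc30a10*, a manganese exporter, fell. The study's own list for zinc in these livers holds *Mt1*, *Mt2* and *Slc39a4*, and also *G6pc*, *Arntl* and *Npas2*, so their direction is not independent evidence. The promoters of both metallothionein genes are shown here because MTF1 is known to act there. Each is given as 250 bases upstream of the RefSeq start on GRCm38.p6, 5′ to 3′. Matches to TGCACNC or TGCGCNC, searched on both strands, are in capitals. Sites outside these 250 bases, also those after the start, were not searched. *Mt1* lies at chr8:94178839-94179088 (plus strand) and had 1 match, 23 bases before the start, and *Mt2* at chr8:94172368-94172617 (plus strand) with 3, at 223, 128 and 50 bases:
Mt1: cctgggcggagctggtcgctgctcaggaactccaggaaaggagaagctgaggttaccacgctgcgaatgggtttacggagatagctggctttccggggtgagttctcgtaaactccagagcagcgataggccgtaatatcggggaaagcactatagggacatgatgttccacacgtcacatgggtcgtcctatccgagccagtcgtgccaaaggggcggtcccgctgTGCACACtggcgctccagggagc
Mt2: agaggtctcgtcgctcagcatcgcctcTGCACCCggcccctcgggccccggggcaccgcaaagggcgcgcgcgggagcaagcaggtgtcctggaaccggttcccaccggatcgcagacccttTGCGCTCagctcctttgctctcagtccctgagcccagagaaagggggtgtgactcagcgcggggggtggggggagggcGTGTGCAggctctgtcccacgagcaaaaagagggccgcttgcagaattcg

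Of the 9908 genes whose promoter could be matched, 30.0% held such a match, and so did 27.4% of the upregulated and 29.4% of the downregulated genes. The gene *Mt1* (ENSMUSG00000031765, chr8:94179082-94180327, plus strand) stood at 209.6, 403 and 437 in water-PBS and rose to 15100, 13300 and 12370 in zinc-Dex (LFC 5.28, SE 0.229, DESeq2 adjusted p 7.18e-115). *Mt2* (ENSMUSG00000031762, chr8:94172664-94173568, plus strand) rose from 13.7, 44.7 and 25.4 to 4249, 3886 and 3497 (LFC 7.10, SE 0.378, DESeq2 adjusted p 5.26e-76). The lowest zinc-Dex mouse lay far above the highest control in both genes. *Slc39a4* (ENSMUSG00000063354, chr15:76612383-76617384, minus strand) fell from 749, 693 and 564 to 186, 212 and 245 (LFC -1.64, SE 0.156, DESeq2 adjusted p 3.75e-24). *Slc30a10* fell from 914, 705 and 705 to 378, 424 and 297 (LFC -1.08) and *Slc39a14* rose from 2823, 3072 and 2480 to 5666, 5036 and 6529 (LFC 1.04), with no overlap of the groups. *Slc30a1*, the zinc exporter ZnT1 and a classical MTF1 target, did not pass the fold threshold, at 459, 551 and 661 against 446, 426 and 396 (LFC -0.40, DESeq2 adjusted p 0.0126). Neither did *Slc39a10*, the importer ZIP10 (LFC -0.65), *Mtf1* itself (LFC 0.11) or *Agtpbp1*, a cytosolic carboxypeptidase gene known to rise with zinc in gut (LFC 0.22). *Slc30a2*, the exporter ZnT2, had too few counts for the rule. *Mt2*, *Slc30a10*, *Slc30a1*, *Mtf1* and *Agtpbp1* overlap a gene on the opposite strand, as above.

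The other 6 mice place these changes. All comparisons with water-PBS use the same 3 control mice, so the values are set side by side only. With Dex alone the LFC was 4.43 for *Mt1* and 6.41 for *Mt2*, with zinc alone 3.87 and 5.38, and with both 5.28 and 7.10. *Mt1* stood at 6233, 3437 and 5684 in zinc-PBS and at 7587, 7590 and 7489 in water-Dex, so the zinc-Dex mice lay above both single treatments. Against zinc-PBS, zinc-Dex was higher by an LFC of 1.41 for *Mt1* (SE 0.224, DESeq2 adjusted p 6.91e-09) and 1.73 for *Mt2* (SE 0.344, DESeq2 adjusted p 6.83e-06), where 11.2% of all tested genes were called. Against water-Dex, where 0.497% were called, *Mt1* was higher by 0.85 (SE 0.224, DESeq2 adjusted p 0.0183), a call lost in 10 of 15 alternatives, with an adjusted p of 0.456 without zinc-Dex mouse 1. *Mt2* was not called there (LFC 0.69, DESeq2 adjusted p 0.451). For *Slc39a4* the combined change of -1.64 stood beside -1.5 with zinc alone and -0.10 with Dex alone. Its zinc-Dex mice lay below the water-Dex mice (LFC -1.54, SE 0.156, DESeq2 adjusted p 6.74e-19) and overlapped the zinc-PBS mice, which stood at 215, 235 and 259. *Slc30a1* had an LFC of 0.70 with zinc alone, short of the fold threshold, and fell with Dex alone (LFC -1.21), to 239, 251 and 229.6. Its zinc-Dex mice were higher than the water-Dex mice (LFC 0.82, SE 0.138, DESeq2 adjusted p 3.72e-06) and lower than the zinc-PBS mice (LFC -1.10, DESeq2 adjusted p 6.73e-16). The first of these calls was lost without water-Dex mouse 3 (LFC 0.79) and without zinc-Dex mouse 1 (LFC 0.78), just under the threshold.

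**Figure D3:**
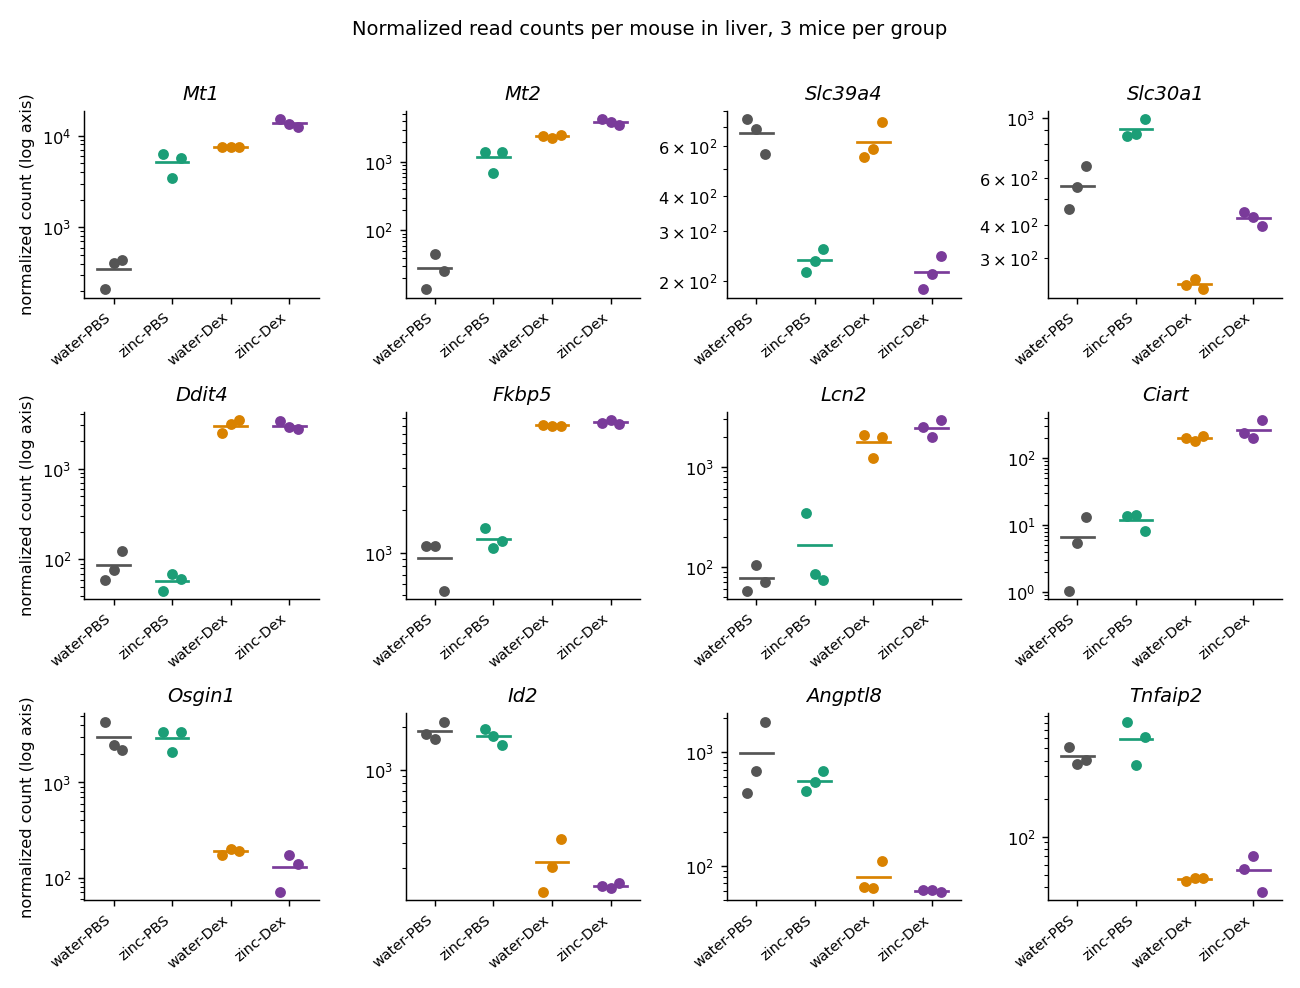
Each panel gives the normalized count of 1 gene on a log axis in each of the 12 mice (points), with the mean of each group of 3 as a line. *Mt1* and *Mt2* are raised by each treatment and highest in zinc-Dex, *Slc39a4* is low in both zinc groups, and *Ddit4*, *Fkbp5*, *Ciart*, *Osgin1* and *Id2* follow Dex.

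Counts below refer to listed members that passed the count rule. Besides *Slc30a2*, *Ppp1r3d*, *Cidea*, *Bhlhe41*, *Socs1*, *Fosb*, *Egr2*, *Egr3*, *Nr4a3*, *Cxcl2*, *Ccl4*, *Il6*, *Tnf*, *Il1r2*, *Gsta1*, *Slc7a11*, *Asns* and *Klf5* had too few counts, and *Hjv* was not found under this symbol. The lists were set against 12.2% of all genes called and a median LFC of -0.007. By the adjusted p alone, 14.2% of all genes were higher and 12.7% lower. The lists were written with earlier results of these data known, so their shares of called members are not independent evidence. Called members named by the rule had to have separate groups, so separation in these genes is no added result. This does not hold for genes named after their values were seen.

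The listed targets of GR, chosen with earlier results of these data known, rose nearly as a whole. Of 17 listed targets, all passing the count rule, 16 were upregulated, with a median LFC of 2.40. *Ddit4* (ENSMUSG00000020108, chr10:59949669-59951834, minus strand), which codes for the mTOR inhibitor REDD1, rose from 60.0, 76.6 and 125 to 3322, 2892 and 2732 (LFC 5.10, SE 0.204, DESeq2 adjusted p 1.11e-134). *Fkbp5*, a co-chaperone that damps GR in a feedback loop, rose from 1121, 1117 and 539 to 8334, 8691 and 8265 (LFC 3.19). The zinc-Dex mice were nearly equal for *Fkbp5* and clear of the controls in both. *Lpin1*, a phosphatidate phosphatase and coactivator, rose from 2427, 2832 and 745 to 20820, 19680 and 19670 (LFC 3.33). *Igfbp1*, a secreted binding protein of insulin-like growth factors, stood at 1955, 898 and 86.1 and rose to 19750, 16050 and 11420 (LFC 4.01, SE 0.924). Its control values were scattered, and the LFC was 3.46 without water-PBS mouse 3 and 5.0 without water-PBS mouse 1. The feedback and signalling members *Sgk1* (LFC 2.85), a kinase of ion transport, *Tsc22d3* (LFC 2.04), which codes for the anti-inflammatory protein GILZ, *Zbtb16* (LFC 2.02), a zinc finger repressor, and *Per1* (LFC 1.12), a clock gene, were among the other members that rose. *Klf9*, a Krueppel-like factor, was the member not called, at 1138, 1449 and 938 against 2057, 2077 and 1860 (LFC 0.76, DESeq2 adjusted p 5.69e-05). It passed the threshold without water-PBS mouse 2 (LFC 0.95) or zinc-Dex mouse 3 (LFC 0.82). *Sgk1*, *Tsc22d3*, *Zbtb16* and *Per1* were named after their values were seen. *Fkbp5* overlaps a gene on the opposite strand, as above.

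Genes for making glucose went up in part and the last step of its release went down. Of 16 genes of gluconeogenesis and glycolysis 6 were upregulated and 1 downregulated, with a median LFC of 0.55. *Pck1*, the cytosolic phosphoenolpyruvate carboxykinase that commits carbon to glucose, rose from 24200, 17110 and 6732 to 48660, 47400 and 43140 (LFC 1.53, DESeq2 adjusted p 0.00301). *Foxo1*, a transcription factor that insulin keeps out of the nucleus, rose from 420.2, 418 and 444 to 1213, 1213 and 1236 (LFC 1.52, SE 0.0941). The control mice differed widely for *Pck1* and hardly for *Foxo1*. *Slc37a4*, the glucose 6-phosphate carrier (LFC 0.96), and *Ppargc1a*, a coactivator of gluconeogenic genes (LFC 0.96), also rose. *G6pc*, the catalytic subunit of glucose 6-phosphatase, was the member that fell, from 2810, 3258 and 1756 to 954, 1422 and 841 (LFC -1.28, DESeq2 adjusted p 0.00116). *G6pc* was also lower with zinc alone, at 830.5, 540.1 and 1000 (LFC -1.72), and had an LFC of -0.51 with Dex alone, which was not called. Among the upregulated genes of glycolysis was *Pfkfb3*, which makes the activator of phosphofructokinase (LFC 1.72). *Pfkfb3* stood at 406, 519 and 472 in zinc-Dex, below the 677, 714 and 757 of the water-Dex mice. *Pcx*, pyruvate carboxylase, stayed under the fold threshold (LFC 0.66, DESeq2 adjusted p 2.31e-10), and *Fbp1*, fructose bisphosphatase, had overlapping groups (LFC -0.20). Of 12 glycogen genes 2 were upregulated, and both target protein phosphatase 1 to glycogen. These were *Ppp1r3c*, from 962, 1055 and 1591 to 3080, 3210 and 2446 (LFC 1.28), and *Ppp1r3g* (LFC 2.41). *Ppp1r3c* was lower with zinc alone (LFC -0.85) and higher with Dex alone (LFC 1.35). *Pygl*, liver glycogen phosphorylase, had an LFC of -0.09 with overlapping groups. *Slc37a4*, *Ppargc1a*, *G6pc* and *Ppp1r3g* were named after their values were seen. *Foxo1*, *Ppargc1a*, *Pfkfb3*, *Pcx*, *Ppp1r3g* and *Pygl* overlap a gene on the opposite strand, as above.

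Amino acid breakdown rose at some of its entry enzymes. Of 24 genes of this list 7 were upregulated, with a median LFC of 0.49, and 13 were higher by the adjusted p alone. *Tat*, tyrosine aminotransferase, which starts tyrosine breakdown, rose from 7893, 8466 and 12250 to 84170, 69840 and 65110 (LFC 2.94, SE 0.162, DESeq2 adjusted p 6.9e-71). *Sds*, serine dehydratase, rose from 541, 666 and 814 to 3921, 3489 and 3778 (LFC 2.47). Their zinc-Dex mice lay well above all controls. *Tdo2*, tryptophan dioxygenase (LFC 1.81), *Got1*, cytosolic aspartate aminotransferase (LFC 1.75), *Gpt2*, mitochondrial alanine aminotransferase (LFC 1.52), *Aass*, which opens lysine breakdown (LFC 1.37), and *Sdsl*, a serine dehydratase relative (LFC 1.03), rose as well. *Mat1a*, which makes S-adenosylmethionine, and *Cdo1*, cysteine dioxygenase, stayed under the fold threshold, with LFCs of 0.78 and 0.71. *Mat1a* passed it without water-PBS mouse 3 (LFC 0.90) or zinc-Dex mouse 2 (LFC 0.86). In the urea cycle 2 of 7 genes were upregulated. *Slc25a15*, the mitochondrial ornithine carrier, rose from 3725, 3789 and 4765 to 17200, 14190 and 15620 (LFC 1.94). *Asl*, argininosuccinate lyase, had an LFC of 0.93, which was 0.78 and no longer called without water-PBS mouse 1. *Cps1* and *Ass1*, the enzymes of carbamoyl phosphate and argininosuccinate synthesis, had LFCs of 0.69 and 0.58, under the threshold. *Gpt2*, *Aass* and *Sdsl* were named after their values were seen. *Sds* overlaps a gene on the opposite strand, as above.

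Lipid genes moved in both directions. Of 15 genes of fatty acid synthesis 2 were upregulated and 1 downregulated. *Srebf1*, the transcription factor through which insulin drives lipid synthesis, fell from 1623, 1599 and 2598 to 481, 575 and 488 (LFC -1.91, SE 0.166). *Thrsp*, a protein of lipogenic tissue, rose from 1698, 2160 and 3590 to 15300, 9155 and 14680 (LFC 2.39). *Acacb*, mitochondrial acetyl-CoA carboxylase, rose from 1666, 1403 and 1703 to 3523, 2771 and 3070 (LFC 0.97), while the water-Dex mice stood at 1560, 1944 and 1795. The groups did not overlap in any of these 3 genes, which was a condition for naming them. *Scd1*, stearoyl-CoA desaturase, had an LFC of 0.42 (DESeq2 adjusted p 0.442) that was set by zinc-Dex mouse 1 and was -0.012 without it. Of 17 genes of lipolysis and lipid droplets 5 were upregulated and 3 downregulated. Droplet coat genes rose, *Plin4* from 22.1, 20.1 and 21 to 434, 426 and 505 (LFC 4.44) and *Plin5* from 400.2, 384 and 452 to 4965, 4302 and 3926 (LFC 3.42), while *Plin2* fell (LFC -1.05). *G0s2*, an inhibitor of the lipase ATGL, fell from 960.4, 261 and 633 to 77.2, 158 and 65.4 (LFC -2.63), and *Pnpla2*, which codes for ATGL, rose (LFC 1.55). *Angptl4*, an inhibitor of lipoprotein lipase (LFC 1.43), and *Cidec*, a droplet fusion protein (LFC 1.04), rose too. *Lipa*, lysosomal acid lipase, had an LFC of -0.23. *Plin2*, *Pnpla2*, *Angptl4* and *Cidec* were named after their values were seen. *Srebf1*, *Acacb*, *Plin4* and *G0s2* overlap a gene on the opposite strand, as above.

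In fatty acid oxidation and ketogenesis 2 of 16 genes were upregulated, a share near the 12.2% of all genes called. By the adjusted p alone 8 were higher, beside 14.2% of all genes. *Acot1*, an acyl-CoA thioesterase, rose from 493, 313 and 137 to 1244, 1400 and 1055 (LFC 1.97). *Cyp4a14*, a fatty acid omega-hydroxylase, had an LFC of 0.93, which was 0.75 and not called without water-PBS mouse 3. In cholesterol synthesis and LDL uptake 3 of 21 genes were upregulated, again near the share of all genes called, and 12 were higher by the adjusted p alone. *Insig2*, which retains the sterol sensor in the endoplasmic reticulum, rose from 3181, 3476 and 2446 to 14920, 14470 and 8970 (LFC 2.07), with no overlap of the groups. *Hmgcs1*, an early enzyme of the pathway, had an LFC of 0.19 (DESeq2 adjusted p 0.542), which was -0.074 without zinc-Dex mouse 1. Of 15 bile acid genes 2 were upregulated and 1 downregulated. *Nr0b2*, the repressor SHP, fell from 586, 361 and 282 to 74, 187 and 127 (LFC -1.66). *Abcc2*, a canalicular exporter, rose (LFC 0.83), and *Cyp27a1*, a sterol hydroxylase, lay at the threshold itself (LFC 0.80) and was not called in 9 alternatives. *Slco1b2*, an uptake transporter, had overlapping groups (LFC 0.18). *Insig2* and *Hmgcs1* overlap a gene on the opposite strand, as above.

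Clock genes changed in both directions in the same animals. Of 18 members 6 were upregulated and 6 downregulated, against 12.2% of all genes called, with a median LFC of 0.02. *Ciart*, a repressor of the clock, rose most, from 1.05, 5.47 and 13.2 to 236, 200.3 and 368 (LFC 5.38, SE 0.405). Its control level was close to 0, and the LFC moved between 4.89 without water-PBS mouse 1 and 6.30 without water-PBS mouse 3. Clock factors bind the E-box CACGTG, which is its own reverse complement. The *Ciart* promoter, shown because it held 3 such boxes (capitals), at 116, 58 and 44 bases before the RefSeq start, lies at chr3:95882229-95882478 on the minus strand of GRCm38.p6:
Ciart: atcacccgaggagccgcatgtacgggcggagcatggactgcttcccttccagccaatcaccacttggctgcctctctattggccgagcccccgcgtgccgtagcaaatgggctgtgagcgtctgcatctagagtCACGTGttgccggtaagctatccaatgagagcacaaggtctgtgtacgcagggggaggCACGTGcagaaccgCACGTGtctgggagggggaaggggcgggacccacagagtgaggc

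Among all matched promoters 8.38% held at least 1 CACGTG, as did 8.21% of those of upregulated and 7.8% of those of downregulated genes. *Cry2*, a cryptochrome repressor, rose from 200.1, 211 and 270.5 to 703, 647 and 677 (LFC 1.58), while *Cry1* fell (LFC -1.22). *Per1*, the GR-responsive period gene, rose by 1.12, while *Per2* fell (LFC -0.96). *Nr1d1*, the repressor REV-ERB alpha, fell from 1325, 918 and 889.8 to 479, 377 and 353 (LFC -1.37) and was lower still in water-Dex, at 211, 302 and 193. *Bhlhe40*, another repressor, fell from 596, 1295 and 1625 to 273, 391.8 and 428 (LFC -1.69). The activators *Arntl* (LFC -1.26) and *Npas2* (LFC -1.75) fell. With zinc alone their LFCs were -0.92 and -1.60, neither called in the fit used here, and with Dex alone 0.03 and 0.05. The study's own list for zinc in these livers, with the same fold limit, holds both genes as reduced. *Nfil3* (LFC 1.04), *Rora* (LFC 0.94) and *Tef* (LFC 0.82), which shape clock output, rose. *Nr1d2*, the partner of *Nr1d1*, had an LFC of 0.55, under the threshold. *Cry1*, *Per2*, *Arntl*, *Npas2*, *Nfil3*, *Rora* and *Tef* were named after their values were seen. *Cry2*, *Nr1d1*, *Bhlhe40*, *Arntl*, *Npas2*, *Rora* and *Tef* overlap a gene on the opposite strand, as above.

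Several brakes on insulin and mTOR signalling rose. Of 22 genes of insulin, IGF and mTOR signalling 5 were upregulated and 3 downregulated, and of the 7 inhibitors among them 4 rose, with a median LFC of 1.23. Besides *Ddit4* these were *Sesn1*, a stress-induced inhibitor of mTORC1, from 244, 225 and 246 to 1206, 922 and 874 (LFC 2.07), *Trib3* (LFC 1.67) and *Trib1* (LFC 1.23), pseudokinases. *Irs1*, an adaptor of the insulin receptor, fell (LFC -1.65). The cytokine signal inhibitors *Socs3* and *Cish* fell, *Socs3* from 111, 129 and 76.2 to 14.1, 22.3 and 14.4 (LFC -2.64, DESeq2 adjusted p 0.0026). *Cish* had an LFC of -2.17 that rested on water-PBS mouse 2, since it was -1.49 with an adjusted p of 0.0801 without that mouse. *Igf1*, the growth factor, had overlapping groups (LFC -0.26). In the autophagy and FoxO list 5 of 14 genes were upregulated: *Foxo1*, *Foxo3* (LFC 1.5), the mitophagy receptor *Bnip3* (LFC 1.51), *Map1lc3b*, which codes for the autophagosome protein LC3B (LFC 1.28), and the kinase *Ulk1* (LFC 0.98). *Map1lc3b* rose from 757, 874 and 844 to 2085, 2026 and 1887, above the 1318, 1600 and 1294 of the water-Dex mice. *Sqstm1*, the cargo receptor p62, had an LFC of -0.15 with overlapping groups. *Trib1*, *Irs1* and *Ulk1* were named after their values were seen. *Irs1*, *Cish*, *Igf1*, *Bnip3*, *Map1lc3b* and *Sqstm1* overlap a gene on the opposite strand, as above.

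Growth arrest genes rose more often than they fell, and early response genes went both ways. Of 14 growth arrest and p53 target genes 7 were upregulated and 2 downregulated, with a median LFC of 0.80. *Cdkn1a*, which codes for the cell cycle inhibitor p21, rose from 169.6, 163 and 80.6 to 3204, 3650 and 2455 (LFC 4.49), and *Gadd45g* from 70.6, 132 and 76.2 to 2282, 2287 and 2148 (LFC 4.59). Both genes were more than 10 times above the controls in every zinc-Dex mouse. *Ccng2* (LFC 1.83), *Plk3* (LFC 1.30) and *Btg2* (LFC 1.08) rose as well, whereas *Gadd45a* (LFC -1.35) and *Plk2* (LFC -1.18) fell. Of 15 immediate early genes 5 were upregulated and 3 downregulated. *Jun* rose from 142, 123 and 116 to 795, 751 and 599 (LFC 2.49) and *Myc* from 29.5, 42 and 17.7 to 142, 144 and 125 (LFC 2.19), both growth-linked transcription factors. *Fosl2* (LFC 1.31) and *Zfp36* (LFC 1.33), which codes for an mRNA-decay factor, rose and *Ier5* (LFC -1.41) fell. *Egr1* stood at 3389, 552 and 304 in water-PBS and 194, 167 and 233 in zinc-Dex (LFC -2.84), and without water-PBS mouse 1 the LFC was -1.11 with an adjusted p of 0.0581. *Junb* likewise had an LFC of -1.98 and, without the same mouse, one of -1.62 with an adjusted p of 0.0851. *Ier2* was not called (LFC -0.48). *Ccng2*, *Plk3*, *Btg2*, *Gadd45a*, *Plk2*, *Fosl2*, *Zfp36* and *Ier5* were named after their values were seen. *Cdkn1a*, *Plk3*, *Gadd45a*, *Jun*, *Zfp36* and *Junb* overlap a gene on the opposite strand, as above.

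Of 15 MAPK phosphatases and receptor kinase inhibitors 4 were upregulated and 2 downregulated. *Dusp1*, the phosphatase through which glucocorticoids curb p38 and JNK, rose from 136, 333 and 211 to 817, 1192 and 1578 (LFC 2.40). *Errfi1*, an inhibitor of the EGF receptor, rose from 6640, 12470 and 6245 to 27590, 25870 and 25610 (LFC 1.64). Both genes had groups that were apart, as the naming rule required. *Dusp8* (LFC 3.25) and *Dusp4* (LFC 1.55) rose, *Dusp10* (LFC -1.33) and *Dusp7* (LFC -0.95) fell, and *Dusp6*, the ERK phosphatase, was not called (LFC -0.26). Of 12 Krueppel-like factors 5 were upregulated and 1 downregulated. *Klf15*, a regulator of amino acid breakdown, rose from 1295, 1210 and 1320 to 3209, 2915 and 2739 (LFC 1.21), with *Klf3* (LFC 1.15), *Klf13* (LFC 0.98), *Klf4* (LFC 1.28) and *Klf2* (LFC 0.98). *Klf10*, induced by TGF-beta, fell from 361, 492 and 474 to 88.1, 165 and 134 (LFC -1.78). *Dusp8*, *Dusp4*, *Dusp10*, *Dusp7*, *Klf4* and *Klf2* were named after their values were seen. *Dusp1*, *Errfi1*, *Dusp8*, *Dusp10*, *Klf3* and *Klf13* overlap a gene on the opposite strand, as above.

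Of 20 genes of the NF-kappaB pathway, which drives inflammation, 2 were upregulated and 6 downregulated, with a median LFC of -0.21. Among the 8 early targets 4 fell and 1 rose. *Tnfaip2*, a TNF-induced gene, fell from 517, 379 and 407 to 55.5, 70.1 and 36.5 (LFC -3.01), and *Irf1*, an interferon regulatory factor, from 468, 469.8 and 498 to 74, 56.8 and 83.7 (LFC -2.74). *Icam1*, an adhesion molecule of leukocyte entry, fell from 139, 140.5 and 115 to 30.5, 31.2 and 34.6 (LFC -2.03). The groups were far apart in these 3 genes. *Ccl2*, a monocyte chemokine, was at or under the floor of 3 counts in all zinc-Dex mice and at least 3.58-fold lower. *Nfkbia*, which codes for the inhibitor that holds NF-kappaB in the cytoplasm and is itself a GR target, rose from 363, 397 and 275 to 1229, 1144 and 1225 (LFC 1.80). *Bcl3* (LFC -1.34) and *Nfkbie* (LFC -1.26), both of the inhibitor family, fell, and *Vcam1*, an endothelial adhesion molecule, rose (LFC 1.76). Of the 5 subunit genes DESeq2 called 0, with 1 higher and 1 lower at an unadjusted p under 0.05, and edgeR called 0. *Rela*, the subunit p65, stood at 394, 436 and 357 and 462, 476 and 475 (LFC 0.25). In the zinc-PBS group, mouse 1 stood apart in these genes, with 1830 for *Irf1* against 518 and 575 in the other two. *Icam1* stood at 630.4, 134 and 148 in that group. In zinc-Dex against water-PBS this mouse entered through the pooled spread, the size factors and the count rule, and without it 1583 genes were called. It is also 1 of the 3 mice behind every zinc-PBS value. *Ccl2*, *Bcl3*, *Nfkbie* and *Vcam1* were named after their values were seen. *Tnfaip2*, *Irf1*, *Icam1*, *Ccl2*, *Bcl3* and *Vcam1* overlap a gene on the opposite strand, as above.

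Of 26 cytokines, chemokines and their receptors 5 were upregulated and 3 downregulated, and by the adjusted p alone 6 were higher and 8 lower. Apart from the chemokine *Ccl9* (LFC 0.92), the upregulated genes limit or receive cytokine signals. *Il1rn*, the interleukin-1 receptor antagonist, rose from 34.8, 54.7 and 58.5 to 239, 269 and 198 (LFC 2.25). *Il6ra*, a chain of the interleukin-6 receptor, rose from 854, 934 and 706 to 3239, 3337 and 3278 (LFC 1.98). *Il1r1*, the signalling interleukin-1 receptor, had an LFC of 1.97, and *Tnfrsf1b*, the second TNF receptor, one of 1.36. *Il1b*, the cytokine interleukin-1 beta, fell from 29.5, 26.4 and 28.7 to 0, 4.45 and 0.962 (LFC -3.99) and *Cxcl10*, an interferon-induced chemokine, from 48.4, 43.8 and 50.8 to 2.18, 4.45 and 8.65 (LFC -3.22). *Cxcl12*, a constitutive chemokine, had overlapping groups (LFC -0.21). *Il1rn* stood at 121, 139 and 114 in water-Dex and was higher in zinc-Dex (LFC 0.92, SE 0.264, DESeq2 adjusted p 0.0395), a call lost in 6 of 15 alternatives. *Ccl9*, *Il1b* and *Cxcl10* were named after their values were seen. *Il6ra*, *Il1b* and *Cxcl10* overlap a gene on the opposite strand, as above.

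Interferon-stimulated genes were mostly lower, and most of them by less than the fold threshold. Of 27 members 1 was upregulated and 5 downregulated, with a median LFC of -0.55. By the adjusted p alone 18 were lower, beside 12.7% of all genes. *Ifit2* (LFC -0.97) and *Ifit1* (LFC -0.90), antiviral RNA-binding proteins, fell, as did *Ifit3* (LFC -0.81), *Tap1*, a peptide transporter of antigen presentation (LFC -0.87), and *Irf1*. The calls of *Ifit2* and *Ifit1* were near the threshold, and the smallest LFCs were -0.80 without zinc-Dex mouse 3 for *Ifit2* and -0.72 without water-PBS mouse 3 for *Ifit1*. *Usp18*, which removes ISG15 and dampens the interferon receptor, went the other way, from 148, 164 and 174 to 833, 601 and 652 (LFC 2.10). *Iigp1*, an interferon-induced GTPase, stood at 7447, 7941 and 6863 and 4251, 5516 and 5435 (LFC -0.55, DESeq2 adjusted p 7.48e-07). Of 10 genes of necroptosis and death receptors DESeq2 called 0, with 1 higher and 2 lower at an unadjusted p under 0.05, and edgeR called 0. *Tnfrsf1a*, the main TNF receptor, stood at 905, 1010 and 975 and 831, 735 and 840.4 (LFC -0.26, DESeq2 adjusted p 0.041). *Ifit3* and *Tap1* were named after their values were seen. *Tap1* and *Usp18* overlap a gene on the opposite strand, as above.

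Acute phase genes rose in part. Of 23 members, of which 21 had an adjusted p, 8 were upregulated and 1 downregulated, with a median LFC of 0.30. Besides *Lcn2*, these were *Hp*, haptoglobin (LFC 1.99), *Saa4* (LFC 1.95), a serum amyloid, *Serpina3n* (LFC 1.62), a protease inhibitor, *Lbp* (LFC 0.96), which binds lipopolysaccharide, and the transducers *Il6ra*, *Cebpd* and *Cebpb*. *Cebpb* rose from 527, 609 and 383 to 2396, 2494 and 2419 (LFC 2.27) and *Cebpd* from 36.9, 55.6 and 53 to 283, 236 and 275 (LFC 2.45). *Socs3* was the member called lower by DESeq2. EdgeR called 2 members lower, 1 of them an acute phase protein. Of 18 acute phase proteins 16 had an adjusted p of DESeq2, and the lowest LFC among the 18 was -1.06. *Fga*, a fibrinogen chain, stayed under the fold threshold (LFC 0.31). *Hp*, *Saa4*, *Serpina3n* and *Lbp* were named after their values were seen. *Cebpd* and *Cebpb* overlap a gene on the opposite strand, as above.

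Some genes of foreign compound metabolism rose. Of 19 targets of the receptors CAR and PXR 6 were upregulated, with a median LFC of 0.46, and 12 were higher by the adjusted p alone. *Cyp2b10*, the marker target of CAR, rose from 305, 358 and 495 to 8777, 5246 and 5923 (LFC 4.11, SE 0.21). With zinc alone it was lower (LFC -0.98), at 191, 241 and 152, and with Dex alone higher (LFC 4.00). *Alas1*, the first enzyme of heme synthesis, rose from 3720, 4128 and 2439 to 15170, 13090 and 21450 (LFC 2.27), and *Por*, the electron donor of cytochromes P450, from 2968, 3347 and 2929 to 10300, 9747 and 10900 (LFC 1.74). *Sult1e1*, estrogen sulfotransferase, stood at 3.16, 17.3 and 3.31 and 462, 79 and 154 (LFC 4.85). Its level rested on single mice, with an LFC of 3.83 without zinc-Dex mouse 1 and 6.17 without water-PBS mouse 2. *Sult1d1*, another sulfotransferase (LFC 1.54), and *Cyp2c55* (LFC 1.14) rose, while *Cyp3a11*, the marker target of PXR, stayed under the threshold (LFC 0.47). *Sult1d1* and *Cyp2c55* were named after their values were seen. *Alas1*, *Por* and *Cyp2c55* overlap a gene on the opposite strand, as above.

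Of 11 NRF2 antioxidant genes 1 was upregulated and 2 downregulated, which besides *Osgin1* were *Nfe2l2*, the gene of NRF2, from 782, 757 and 1072 to 481, 449 and 472 (LFC -0.90), and *Srxn1*, sulfiredoxin, higher by 0.84. By the adjusted p alone 1 of the 11 was higher and 6 were lower, beside the 12.7% of all genes that were lower by that rule. The call of *Nfe2l2* was lost without water-PBS mouse 3 (LFC -0.72) and that of *Srxn1* without zinc-Dex mouse 3 (LFC 0.76). *Gclc*, which starts glutathione synthesis, had an LFC of -0.63 beside -0.50 with zinc alone and -0.03 with Dex alone. Of 15 heat shock chaperones 2 were upregulated, the inducible HSP70 genes, a share near the 12.2% of all genes called. *Hspa1b* rose from 84.2, 65.7 and 108 to 284, 229 and 243 (LFC 1.56), and *Hspa1a*, at the floor in the controls, was at least 4.61-fold higher. These HSP70 genes are near-identical copies, so their separate levels are uncertain. Of 15 genes of ER stress and the ATF4 response 3 were upregulated and 3 downregulated. *Herpud1*, of ER-associated degradation, rose from 4990, 3996 and 2264 to 11110, 10650 and 10730 (LFC 1.53), with *Trib3* and *Sesn2* (LFC 0.81). *Xbp1*, a factor of the unfolded protein response (LFC -0.82), *Pdia4*, an ER chaperone (LFC -0.81), and *Ddit3*, which codes for CHOP (LFC -0.95), fell, the last with overlapping groups. *Xbp1* and *Pdia4* lost their call in some of the fits without 1 mouse, with LFCs of -0.73 and -0.56 at the least. *Hspa1a*, *Sesn2* and *Ddit3* were named after their values were seen. *Hspa1a*, *Herpud1* and *Ddit3* overlap a gene on the opposite strand, as above.

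Genes of the BMP response mostly fell. Of 9 Id and Smad feedback genes 7 were downregulated and 1 upregulated, with a median LFC of -1.45, and of 10 iron genes 1 was upregulated. *Id3* fell from 569, 794 and 1280 to 141, 112 and 108 (LFC -2.87), *Smad9*, a BMP signal transducer, from 297, 266 and 161 to 34.8, 33.4 and 50 (LFC -2.61) and *Atoh8*, a BMP-induced factor, from 216, 198 and 229.6 to 59.8, 107 and 69.2 (LFC -1.45). The controls were above the zinc-Dex mice throughout in these genes, and separate groups were a condition for naming them. *Id4* (LFC -2.40), *Smad7* (LFC -1.21) and *Id1* (LFC -1.12) fell along with *Id2*, whereas *Bambi*, a decoy receptor, rose (LFC 1.20). *Tfrc*, transferrin receptor 1, was the iron gene that rose (LFC 1.10), and *Fth1*, ferritin heavy chain, stayed under the threshold (LFC 0.25). Of 5 alpha-arrestins *Arrdc3* and *Arrdc4* (LFC -1.83) fell and *Arrdc2* rose, from 95.8, 79.4 and 93.8 to 419, 485 and 357 (LFC 2.23). In cyclic AMP and glucagon signalling 2 of 17 genes were called, near the 12.2% of all genes. Both were downregulated, *Pde4b* and *Pde4a* (LFC -1.01), and *Gcgr*, the glucagon receptor, had overlapping groups (LFC -0.10). *Id4*, *Smad7*, *Id1*, *Bambi*, *Tfrc* and *Pde4a* were named after their values were seen. *Id4* and *Gcgr* overlap a gene on the opposite strand, as above.

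Transcription factors of hepatocyte identity mostly fell. Of 14 members 8 were downregulated and 1, *Cebpb*, upregulated, with a median LFC of -0.99. *Hhex*, a homeobox factor of liver development, fell from 296, 629 and 742 to 52.2, 46.8 and 80.8 (LFC -3.21) and *Gata4*, a zinc finger factor, from 206, 238 and 269 to 63.1, 70.1 and 59.6 (LFC -1.89). *Foxa2* (LFC -1.51), *Foxa1* (LFC -1.41), *Onecut2* (LFC -1.14) and *Cebpa* (LFC -0.84) fell as well. *Onecut1* stood at 112, 283 and 87.2 and 25, 27.8 and 57.7 (LFC -2.12, DESeq2 adjusted p 0.0422), and its call was lost without water-PBS mouse 2 (LFC -1.43, adjusted p 0.283) and in 3 other fits without 1 mouse. *Hnf4a*, the central factor of the list, was not called (LFC 0.29). The summed hepatocyte markers were above the control range in the same mice. *Alb* made up most of that sum, with means of 1064000 in water-PBS and 1317000 in zinc-Dex, and none of the 7 markers was called. In the list of pericentral and Wnt target genes 5 of 12 were downregulated. They were genes of the Wnt response: *Tbx3*, from 372, 348 and 475 to 60.9, 54.5 and 50 (LFC -2.85), *Rnf43*, from 223, 291 and 356 to 39.2, 40.1 and 56.7 (LFC -2.67), *Lgr5* (LFC -1.85, and -2.47 without zinc-Dex mouse 1), *Axin2* (LFC -1.41) and *Nkd1* (LFC -0.91). The pericentral enzymes *Glul*, glutamine synthetase, and *Cyp2e1* had LFCs of 0.57 and 0.50, higher by the adjusted p but under the fold threshold. *Foxa2*, *Foxa1*, *Onecut2*, *Cebpa* and *Nkd1* were named after their values were seen. *Cebpa*, *Hnf4a*, *Tbx3*, *Rnf43*, *Lgr5*, *Axin2* and *Glul* overlap a gene on the opposite strand, as above.

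**Figure D4:**
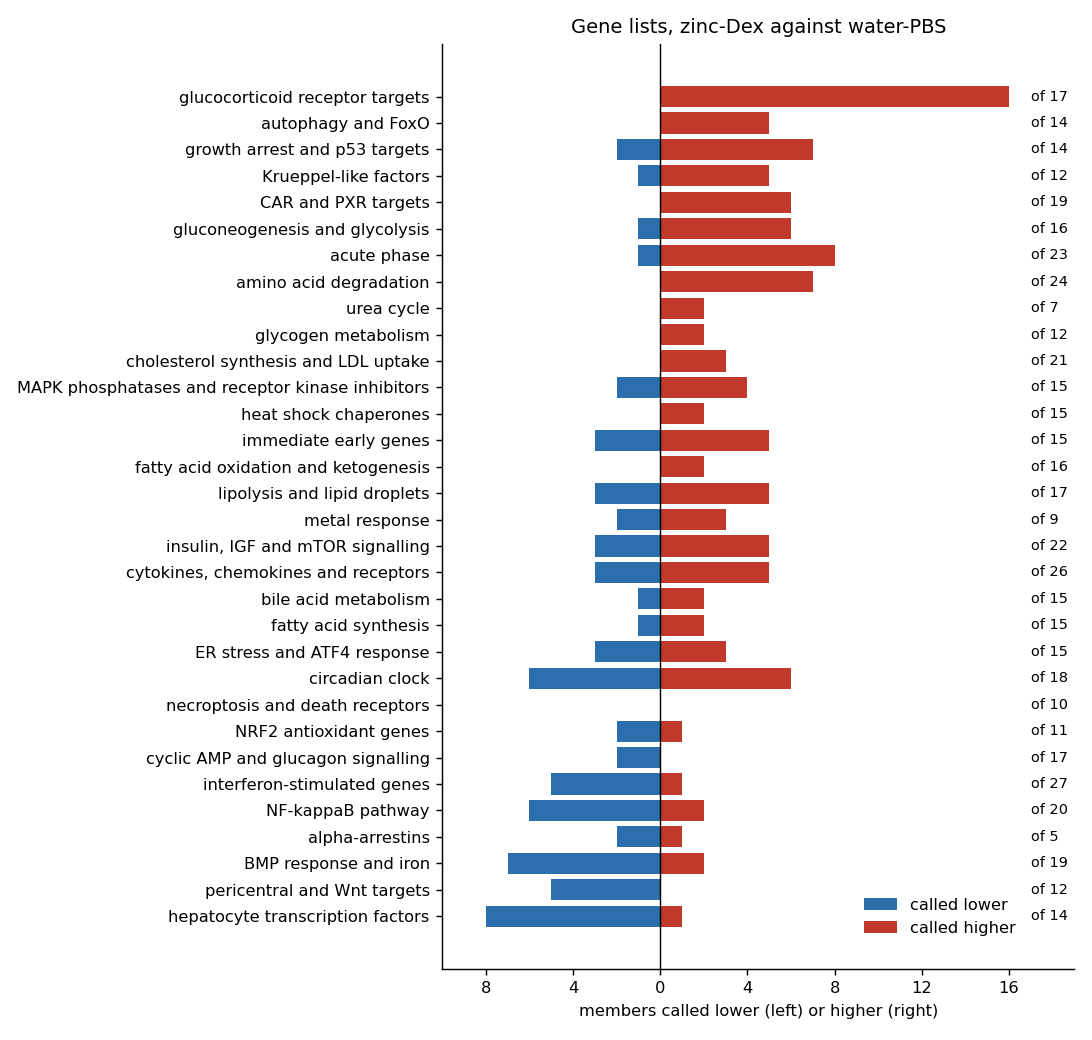
Bars give, for each gene list, how many members were called lower (blue, left) and higher (red, right) in zinc-Dex against water-PBS, with the number of members that passed the count rule at the right. Targets of GR have 16 of 17 members higher, and hepatocyte transcription factors have 8 of 14 lower. The lists were written with earlier results of these data known.

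For few of the genes named by the rule did a call separate the combined treatment from Dex alone. Of the 171 genes named by the rule, 107 were called in zinc-Dex against water-PBS, 98 in water-Dex and 5 in zinc-PBS against the same controls, where 10.4% and 0.202% of all tested genes were called. Most of the 107 were named for that very call, so their number is set by the rule. The 98 share control mice with that call, so these shares are no measure of enrichment. The 5 of zinc alone were *Mt1*, *Mt2*, *Slc39a4*, *Ppp1r3c* and *Cyp2b10*. Genes named after their values were seen, among them *Arntl*, *Npas2* and *G6pc*, are not part of the 171. Set against zinc-PBS, 99 of the 171 differed in zinc-Dex. Set against water-Dex, 5 of the 171 differed, beside 62 of 12479 genes in all: *Mt1*, *Slc30a1* and *Slc39a4* of the metal response, *Acacb* and *Il1rn*. *Acacb* was higher in zinc-Dex than in water-Dex by 0.82 (SE 0.179, DESeq2 adjusted p 0.00135), a call lost in 3 of 15 alternatives, among them edgeR with an adjusted p of 0.0612. *Slc30a10* was lower than in water-Dex by an LFC of -0.80 (DESeq2 adjusted p 0.000459), at the threshold and not called, while edgeR called it with an adjusted p of 0.0407. Of the 171 genes *Mt1* and *Mt2* had a zinc by Dex interaction, a test called for 0.0549% of all tested genes. Their combined LFC was smaller than the sum of the LFCs with zinc alone and Dex alone, for *Mt1* with an interaction of -3.02 (SE 0.32, DESeq2 adjusted p 4.22e-17) and for *Mt2* with one of -4.68 (SE 0.511, DESeq2 adjusted p 2.82e-16).

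**Figure D5:**
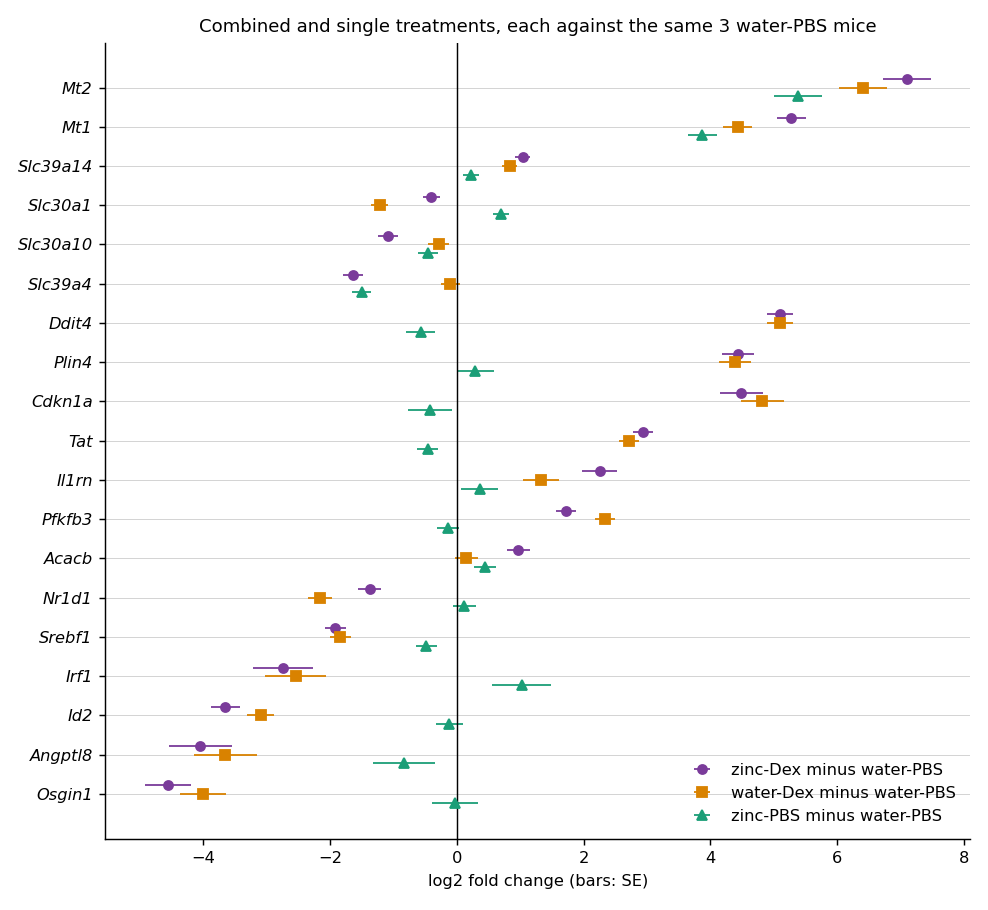
Points give, gene by gene, the log2 fold change against the same 3 water-PBS mice of zinc-Dex (circles), water-Dex (squares) and zinc-PBS (triangles), and bars the SE. *Slc39a4* lies at -1.64 and -1.5 with and without Dex in zinc-treated mice, whereas *Mt1* and *Mt2* are above 3 in all comparisons.

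Other motifs were counted in the same promoters. The 6-base core AGAACA of the GR site was found in 10.8% of the 9908 promoters of 250 bases, in 10.1% of those of upregulated and 9.11% of those of downregulated genes. The cyclic AMP response element TGACGTCA was in 2.65%, 3.42% and 2.11%, in the same order. Both strands were searched, and a match or its absence in these letters says nothing of a factor's binding.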

How the data were processed

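Total RNA of whole liver was sequenced single-end from a stranded library, and the authors deposited 1 table of raw read counts per gene (54838 genes, 12 libraries), made by trimming with Trimmomatic, alignment to mm10 with HISAT2 2.0.4 and counting with featureCounts, where reads with several alignments were left out. The strand setting and the annotation release are not given in the sources used here. All 12 columns were mapped to samples by their labels, and 0 were left unused. Totals were 9091152 to 12303527 counts in the 6 libraries compared.

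Genes that reached 10 counts in 3 or more libraries were fitted in DESeq2 1.42.0 (R 4.3.3), with 1 coefficient per group over all 12 libraries, a Wald test on unshrunken LFCs and Benjamini-Hochberg adjustment. Normalized counts are counts over size factors. Named were the metal response list, of the called genes whose groups were separate and whose mean reached 50 normalized counts, the 12 with the largest increase and the 12 with the largest decrease, and in each list up to 4 called members under the same limits and 2 uncalled members of the highest mean. The genes, lists and alternatives were chosen with earlier results of these data known. The lists cover 32 pathways or gene groups and the cell type markers, the latter described in the libraries' account. Alternatives were edgeR 4.0.16, TMM factors, other filters and thresholds, a replicate block, fewer libraries and 1 library left out (each of the 6 compared and zinc-PBS mouse 1, and each of all 12 for the differences from the single treatments). Coordinates and overlapping genes come from GENCODE M21 (GRCm38), which had 54809 of the genes, and promoters from RefSeq, matched for 9908 genes and for 139 of the 171 named ones. The fit was tested on simulated data. Some listed genes are not reported here.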

Additional observations from a re-analysis of the deposited data

Results flagged for a closer look

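*Mt1* and *Mt2* were singled out because the log2 fold change with Dex differed between mice on zinc and mice on plain water. This was the interaction term of the DESeq2 fit. The interaction was -3.02 for *Mt1* (SE 0.32, DESeq2 adjusted p 4.22e-17) and -4.68 for *Mt2* (SE 0.511, DESeq2 adjusted p 2.82e-16) on the log2 scale. Dex moved *Mt1* by an LFC of 4.43 on plain water and of 1.41 on zinc, and *Mt2* by 6.41 and 1.73. In normalized counts the mean rise with Dex was no smaller on zinc than on plain water in either gene. That scale was not tested. Every mouse of the treated groups lay above every water-PBS mouse in both genes. Single values were not tested as outliers, since each group had 3 mice.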

How the results depend on the processing

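The direction of none of the 107 called named genes turned in any alternative, and 74 kept their call in all of them. Another 20 lost it in the test against an LFC of 0.8 only, and 13 in some other alternative. The 1622 genes called (791 higher, 831 lower) became 3565 (1886 and 1679) without a fold threshold and 474 (348 and 126) in the test against 0.8, which moved the share called higher from 48.77% to 73.42%. EdgeR called 1701 genes, 1601 of them shared, and with only the 6 libraries 1502 were called. Leaving out 1 of the 6 mice compared gave 1461 to 1556 genes, 738 to 775 higher and 707 to 781 lower, and leaving out zinc-PBS mouse 1 gave 1583 (780 and 803). The 5 named genes called against water-Dex became 3 in edgeR and 2 to 6 without 1 mouse, 2 without zinc-Dex mouse 1 and 3 without water-Dex mouse 3. The sign turned for uncalled values only. Without zinc-Dex mouse 1 the LFC of *Scd1* was -0.012 and that of *Hmgcs1* -0.074, and without 1 mouse they reached at most 0.65 and 0.35. The interaction of *Slc30a1* was -0.025 without water-PBS mouse 3 and up to 0.23 otherwise. The interaction of *Slc39a4*, -0.038 with all mice, was 0.070 without water-PBS mouse 3, 0.033 without zinc-PBS mouse 3, 0.096 without water-Dex mouse 3, 0.052 without zinc-Dex mouse 1 and -0.15 without zinc-Dex mouse 3. The cause was not tested.

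The replicate block gave 1499 called genes. Under it *Onecut1* (LFC -1.83, adjusted p 0.1), *Cyp27a1* (LFC 0.80, at the fold threshold) and *Mt1* against water-Dex (LFC 0.85, adjusted p 0.262) were not called. Deviations of zinc-Dex and water-PBS mice of the same number correlated at -0.204, -0.0339 and 0.0414 over 9575 genes. Pairs of different number ranged from -0.245 to 0.284. The labels give no pairing beyond the number, and with 3 mice per group these correlations cannot exclude one. Depth limited precision, with a median SE of 0.454 among the genes of lowest counts.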

Other observations

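Over the 9575 genes whose mean reached 50 normalized counts, the median SD of log2 levels was 0.119 in zinc-Dex and 0.135 in water-PBS, against 0.114 in zinc-PBS and 0.108 in water-Dex, and 1.5% of genes in zinc-Dex and 2.21% in water-PBS had an SD above 0.5. Between pairs of mice, the chi-square of the counts per degree of freedom was 10.9 to 20.8 in zinc-Dex, 8.6 to 17.3 in water-PBS, 9.62 to 11.7 in zinc-PBS and 6.21 to 8.22 in water-Dex.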
